A study of Daphnia magna with 20 samples.

Results

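Names that begin with "conserved protein" make up 264 of the 7784 names in an RNA-seq table of whole water fleas (Daphnia magna). Membership was set by that wording, but the set was proposed with earlier results of these data known. The 20 libraries, made from poly-A RNA of pooled animals, fell into 4 groups of 5. The nano_high group was exposed to 2.3e12 particles per litre of ethylene acrylic acid copolymer, and nano_low to 2.3e11 particles per litre of the same polymer. The silica group was exposed to fumed silica at 2.3e12, labelled without a unit, and control to vehicle. All 4 groups went through the same 21-day renewal test, with 15 vessels of a single daphnid per level. The stage label is newborn, which does not settle the age at sampling after a 21-day test, so that age remains unknown. Nothing in the labels says that the 5 pools of a group came from separate cultures, so the p-values cover only sample-to-sample spread, which may be technical.

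A predicted protein is usually called "conserved" when similar sequences occur in other species and no function has been assigned to any of them. Such genes are common in genomes far from the classic model organisms, and the water flea, a crustacean known for a gene-rich genome and strong responses to its surroundings, has many. Their transcripts can be measured like any other, but a change in them points to no named process.

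Of the 264 names, 259 consist of the 2 words and a tag such as arp2_g6938, and members are called here by that tag. The bare name "conserved protein" carries no tag, and the labels do not say whether it joins several genes. The other 4 names hold further words. One of them, conserved protein c20orf4 homolog/arp2_g3807, is named after a human gene now known as AAR2, whose product takes part in the assembly of the splicing machinery, so the absence of a known function does not hold for it. Conserved protein phum_phum454910/arp2_g292 bears a gene label of the human body louse. The last 2 are conserved protein ,transcript variant 1/arp2_g5346 and conserved protein loc100116637 /arp2_g629. None of the 264 could be matched to the reference table (0 matches), so positions, lengths and sequences are not shown.

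A tag did not always stand for a single name. Among 1431 tagged names, 7 tags occurred under more than 1 name, and each of these 7 joined a conserved protein with an expressed protein, another label without a described function. The members of such a pair could lie far apart. Expressed protein/arp2_g8300 ranged from 231 to 447 CPM in nano_high, 390 to 498 in nano_low, 258 to 507 in silica and 291 to 437 in control. Conserved protein/arp2_g8300 ranged from 25.5 to 38.4, 26.8 to 44.7, 32.1 to 55.9 and 32.5 to 50.4 CPM in nano_high, nano_low, silica and control. CPM are counts per 1000000 of the scaled library total. They are not divided by length, so levels of different members are not compared as amounts of transcript.

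Most conserved proteins were low in count. Of the 264, 10 were at 0 in all 20 libraries and 179 were above 0 in every one. After a filter on low values 232 were tested and 32 were not, none of which passed 58 counts in a library. The 232 had a median of 7.84 CPM (quartiles 1.46 and 23.2), against 31.9 CPM (10.9 and 81.2) over all 7564 names tested. Under 1 CPM lay 47 of the 232 (20.3%), against 6.89% of all names. The median spread between libraries of a group, as an SD of log2 CPM, was 0.405 for the conserved proteins and 0.266 for all names.

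The bare name was the exception. By mean CPM it ranked 2 among all tested names. It held 3.71% to 4.76% of the counts in nano_high, 4.21% to 5.64% in nano_low, 3.35% to 5.32% in silica and 4.26% to 6.01% in control. In CPM it had 48789, 35366, 41716, 48029 and 40976 in nano_high, 37176, 58478, 41912, 52269 and 45121 in nano_low, 56693, 42517, 33532, 40361 and 51427 in silica, and 51230, 41303, 58269, 50509 and 50409 in control. All 4 ranges overlapped, and no comparison called it (lowest edgeR adjusted p = 0.379, nano_high against control). The other 263 names together held 0.579% to 0.718% in nano_high, 0.611% to 0.780% in nano_low, 0.530% to 0.707% in silica and 0.643% to 0.892% in control.

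**Figure D1:**
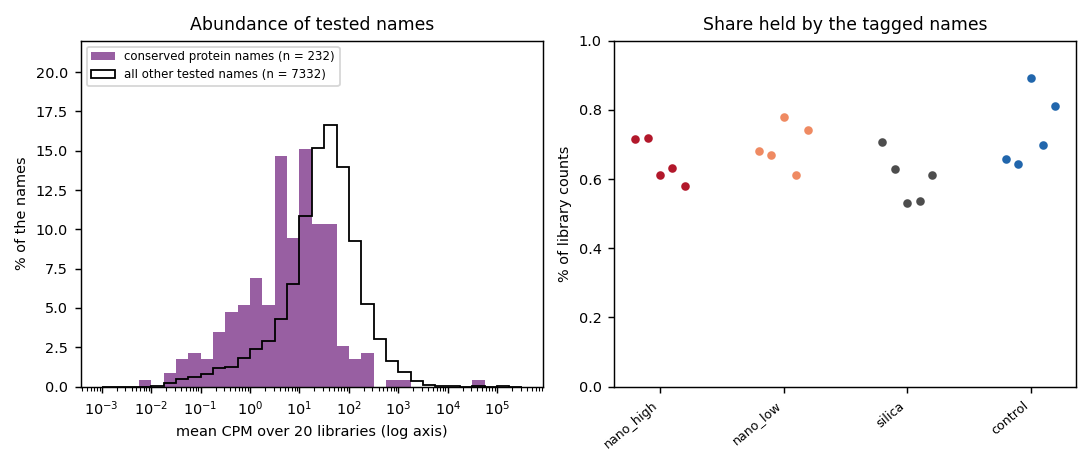
Left: mean CPM over the 20 libraries (log axis) of the 232 tested conserved proteins (filled) and of all other tested names (line), as a percentage of each set. Right: share of library counts held by the 263 tagged names, a point per library, lying between 0.530% and 0.892%.

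Libraries differed in depth and in collagen and yolk transcripts. Totals ran from 7912434 to 95906857 counts, and each nano_high library was deeper than each control library. Nano_high libraries held 221 to 231 of the 264 members (median 230), against 211 to 225 in nano_low (214), 204 to 232 in silica (221) and 211 to 223 in control (217). After thinning to the lowest total the medians were 219, 213, 214 and 214. Nano_high 4 and 5, nano_low 1, and control 4 and 5 stood apart at one end of the first principal component of all other names (40.1% of the variance). The 30 collagen names summed to 4116 to 12730 CPM in nano_high, 2709 to 13800 in nano_low, 8407 to 17348 in silica and 3177 to 10681 in control. The 4 yolk names summed to 20151 to 139917 CPM in nano_high, 14146 to 62011 in nano_low, 9939 to 27907 in silica and 27167 to 79662 in control. The part of these differences in the results was not tested. In pooled whole animals, fewer cells of a type and less RNA per cell cannot be told apart.

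At the higher polymer concentration 14 of the 232 conserved proteins changed against control, 3 higher and 11 lower (edgeR quasi-likelihood test, Benjamini-Hochberg adjustment over all names, threshold 0.05). Over all names 10.1% were called, 5.17% higher and 4.89% lower, so the members' 6.03% lay under the background. The median log2 fold change was -0.02 for the members and 0.02 for all names. Calls became more frequent with the mean over all names, but among the members their share did not rise steadily. Of the 232 members, 161 (69.4%) lay under a mean of 16.7 CPM, the bound of the third of all names with the lowest means. There 9 of them (5.59%) and 5.43% of all names were called. Between 16.7 and 57.3 CPM 4 of 53 members (7.55%) were called, against 10.2% of all names, and above that 1 of 18 (5.56%), against 14.6%. Libraries did not overlap between nano_high and control for 17 members (7.33%, against 8.80% of all names), 4 higher (4.02% of all names) and 13 lower (4.79%).

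The most extreme called fold belonged to a transcript missing from the polymer group. Conserved protein/arp2_g1399 was at 0 in all 5 nano_high libraries, and at 1.99, 0, 1.02, 1.79 and 0.0769 CPM in control. Control 2 was also at 0, so the groups overlapped. In all it had 0 counts in nano_high and 109 in control. Against a floor of 3 counts over the nano_high group (0.0107 CPM) it was at least 91.1-fold lower, or 67.5-fold without control 1 (edgeR adjusted p = 0.00655). It had too few values for a test when only the 2 groups entered the fit. In nano_low it had a single count, in nano_low 1 (0.0537 CPM). That comparison did not pass (adjusted p = 0.0907). Silica held 0.602, 2.82, 0.550, 0.479 and 0 CPM, and its adjusted p against control was 0.961.

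Conserved protein/arp2_g6938 was low at both polymer concentrations. It had 1.95, 1.30, 0.759, 1.27 and 0.895 CPM in nano_high, 1.77, 1.78, 1.64, 0.280 and 0.595 in nano_low, and 4.94, 5.10, 4.09, 3.15 and 3.54 in control. Every polymer library lay under every control library. It fell by 1.75 on the log2 scale in nano_high (SE 0.39, edgeR adjusted p = 0.00886). Silica had 2.31, 1.49, 3.25, 2.97 and 2.93 CPM and overlapped all 3 other groups. Its change of -0.69 from control did not pass (adjusted p = 0.268).

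Both arp2_g862 and arp2_g7073 were called more than 2-fold lower in nano_high. Conserved protein/arp2_g862 had 2.01, 1.21, 0.837, 2.58 and 0.875 CPM in nano_high, against 3.25, 3.78, 6.39, 3.00 and 3.31 CPM in control, a log2 fold change of -1.39 (SE 0.33, edgeR adjusted p = 0.0129). Conserved protein/arp2_g7073 had 13.1, 9.69, 9.31, 5.15 and 7.61 CPM in nano_high, against 25.5, 18.7, 31.1, 15.6 and 13.2 CPM in control, a log2 fold change of -1.22 (SE 0.27, edgeR adjusted p = 0.00933). Neither overlapped between the groups, though the nearest arp2_g7073 libraries were 13.1 and 13.2 CPM. Conserved protein/arp2_g862 was no longer called when only nano_high and control entered the fit (adjusted p = 0.0586).

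The lowest adjusted p-values in this comparison belonged to arp2_g17110 and arp2_g6874, whose replicates were steady. Conserved protein/arp2_g17110 had 32.1, 35.5, 32.6, 32.3 and 29.7 CPM in nano_high, against 36.2, 43.4, 48.9, 45.2 and 43.2 CPM in control. Every nano_high library lay under every control library, with a log2 fold change of -0.42 (SE 0.08, edgeR adjusted p = 0.00433). Conserved protein/arp2_g6874 was the fifth highest member by mean CPM. It had 198, 226, 180, 236 and 208 CPM in nano_high, against 279, 307, 305, 301 and 321 CPM in control. Its log2 fold change was -0.53 (SE 0.11, edgeR adjusted p = 0.00498). Conserved protein/arp2_g3410, also steady, averaged 28.2 ± 2.29 CPM in nano_high and 36.1 ± 3.02 CPM in control (SD, n = 5 each). Its log2 fold change was -0.36 (edgeR adjusted p = 0.00959, above those of arp2_g1399, arp2_g6938 and arp2_g7073). This member was taken up with arp2_g6081 after its values were seen.

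The remaining 4 that fell were less firm. Conserved protein/arp2_g2754 averaged 22.3 ± 4.77 CPM in nano_high and 37.4 ± 6.36 CPM in control (SD, n = 5 each). Conserved protein/arp2_g2543 averaged 3.93 ± 0.712 and 5.97 ± 0.670 CPM, conserved protein/arp2_g6081 21.1 ± 1.87 and 26.6 ± 1.95 CPM, in nano_high and control. The splicing-related conserved protein c20orf4 homolog/arp2_g3807 had 10.1, 10.5, 10.5, 10.2 and 11.6 CPM in nano_high, against 13.1, 13.7, 17.4, 17.4 and 14.7 CPM in control (log2 fold change -0.53, edgeR adjusted p = 0.0394). The call of arp2_g3807 was lost without any of nano_high 1 to 5, control 3, 4 or 5, or silica 3 (adjusted p 0.0504 to 0.102), and after thinning to the lowest total (0.11). With the replicate number as a block this call was lost too (0.0725). That of arp2_g2754 was lost without nano_high 2 or 3 or control 3 or 5 (0.0554 to 0.0628), and that of arp2_g2543 without nano_high 2 or 5 or control 2 or 3 (0.0522 to 0.0631), with only the 2 groups in the fit (0.0633) and after thinning (0.178). That of arp2_g6081 was lost without nano_high 2 or 3 or control 3 or 4 (0.0534 to 0.0808), and with only the 2 groups (0.0576).

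Conserved proteins called higher in nano_high than in control rose by less than 2-fold. Conserved protein/arp2_g5606 had 12.9, 16, 15, 15 and 17.9 CPM in nano_high, against 10.2, 12.7, 8.83, 10.8 and 9.39 CPM in control, a log2 fold change of 0.56 (SE 0.14, edgeR adjusted p = 0.0197). Conserved protein/arp2_g12374 had 11.6, 12.0, 13.9, 12.7 and 14 CPM in nano_high, against 7.22, 9.88, 9.85, 8.89 and 8.69 CPM in control, a log2 fold change of 0.53 (SE 0.13, edgeR adjusted p = 0.0156). Conserved protein/arp2_g6135 averaged 16.8 ± 1.04 CPM in nano_high and 12.7 ± 1.95 CPM in control (SD, n = 5 each), just inside the threshold (log2 fold change 0.40, adjusted p = 0.0495). None of the 3 overlapped between nano_high and control. The call of arp2_g5606 was lost without control 3 (0.0566). That of arp2_g6135 was lost in 14 of the 20 fits that left out a library (0.0564 to 0.13). The libraries were nano_low 2, 3 or 4, any nano_high, control 1, 3 or 5, and silica 1, 3 or 5. The call of arp2_g6135 was also lost with only the 2 groups (0.0817), with the replicate number as a block (0.0556) and after thinning (0.111).

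Just outside the threshold lay conserved protein/arp2_g329 (adjusted p = 0.0525) and conserved protein/arp2_g932 (0.0604). Conserved protein/arp2_g329 was at 0 in nano_high and at 2.11, 3.07, 0, 0 and 0 CPM in control, while expressed protein/arp2_g329, the other name of that tag, ranged from 43.1 to 137 CPM in nano_high and from 58.4 to 114 CPM in control. The count of 14 was 8 without control 3, a fit for which the share of all names is not given here. The count was 9 (4.04%, against 5.07% of all names) with only the 2 groups in the fit, and 24 (10.3%, against 15.3%) by DESeq2. In a fit that held the first principal component constant it was 29 (12.5%, against 23.2%). Without the 5 libraries that stood apart it was 10 (4.41%, against 8.20%), of which 5 were among the 14: arp2_g6938, arp2_g862, arp2_g7073, arp2_g6874 and arp2_g3410. There the adjusted p was 0.0625 for arp2_g1399, 0.0595 for arp2_g17110, 0.109 for arp2_g12374, 0.152 for arp2_g5606, 0.0651 for arp2_g6135, 0.0845 for arp2_g2754, 0.0675 for arp2_g2543, 0.104 for arp2_g6081 and 0.0688 for arp2_g3807.

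**Figure D2:**
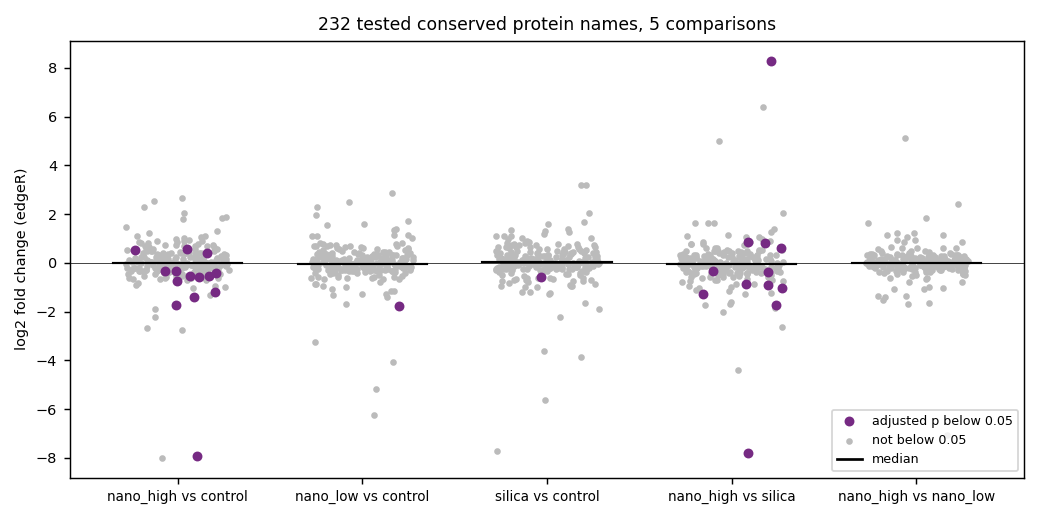
Log2 fold change (edgeR) of each of the 232 tested conserved proteins in 5 comparisons, with called names in purple, the rest in grey and the median as a black line. Medians lie near 0 and called names number 14, 1, 1, 12 and 0 from left to right.

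At the lower polymer concentration a single conserved protein changed. Conserved protein/arp2_g6938, given above by library, fell by 1.78 on the log2 scale in nano_low (SE 0.40, edgeR adjusted p = 0.0447). That is 0.431% of the members, against 0.621% of all names (0.0925% higher and 0.529% lower), and the members' median was -0.04. Libraries did not overlap for 3 members (1.29%, against 2.59% of all names), 1 higher (0.859% of all names) and 2 lower (1.73%). Nearest outside were conserved protein/arp2_g2543 (log2 fold change -0.64, adjusted p = 0.0786) and conserved protein/arp2_g6874 (-0.41, 0.0802). Conserved protein/arp2_g2543 had 4.72, 3.79, 3.08, 3.91 and 3.55 CPM in nano_low, against 5.72, 6.97, 6.24, 5.21 and 5.69 CPM in control, with no overlap. The call of arp2_g6938 was lost in 15 of the 20 fits without a library (nano_low 2 to 5, nano_high 2 or 5, any control, silica 1, 3, 4 or 5; 0.0524 to 0.132). It was also lost with only the 2 groups in the fit (0.219), without the 5 libraries that stood apart (0.0691) and after thinning (0.132). With the replicate number as a block it was lost too (0.0797).

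Under fumed silica a single conserved protein changed too. Conserved protein/arp2_g6874 had 184, 225, 216, 184 and 187 CPM in silica, against 279, 307, 305, 301 and 321 CPM in control. All silica libraries lay under all control libraries, with a log2 fold change of -0.60 (SE 0.11, edgeR adjusted p = 0.0415). The count was 0.431% of the members, against 0.701% of all names (0.145% higher and 0.555% lower), and the members' median was 0.03. Libraries did not overlap for 9 members, each lower in silica (3.88%, against 8.69% of all names, 3.52% higher and 5.17% lower). Nearest outside were conserved protein/arp2_g326 (adjusted p = 0.0528) and conserved protein/arp2_g5775 (0.103), a member near 1 CPM. Conserved protein/arp2_g326 was the third highest member by mean CPM. It had 806, 667, 495, 480 and 672 CPM in silica, against 985, 1160, 1664, 943 and 1229 CPM in control, and these did not overlap. The call of arp2_g6874 was lost without nano_low 3 or 4, nano_high 5, control 2, 3, 4 or 5, or silica 1, 4 or 5 (0.0509 to 0.116). It was also lost without the 5 libraries that stood apart (0.0967) and when the first principal component was held constant (0.144). With the replicate number as a block it was lost too (0.102). Without the 5 libraries, with the component held constant and with the block, 0 of all names were called in silica against control.

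Conserved protein/arp2_g6874 was thus lower than control in each exposed group. In nano_low it had 283, 190, 242, 208 and 215 CPM, with nano_low 1 above the lowest control library, and did not pass. The 3 comparisons share the control libraries, so they are not separate evidence. Between nano_high and silica its difference was 0.07 on the log2 scale (SE 0.10, adjusted p = 0.688).

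**Figure D3:**
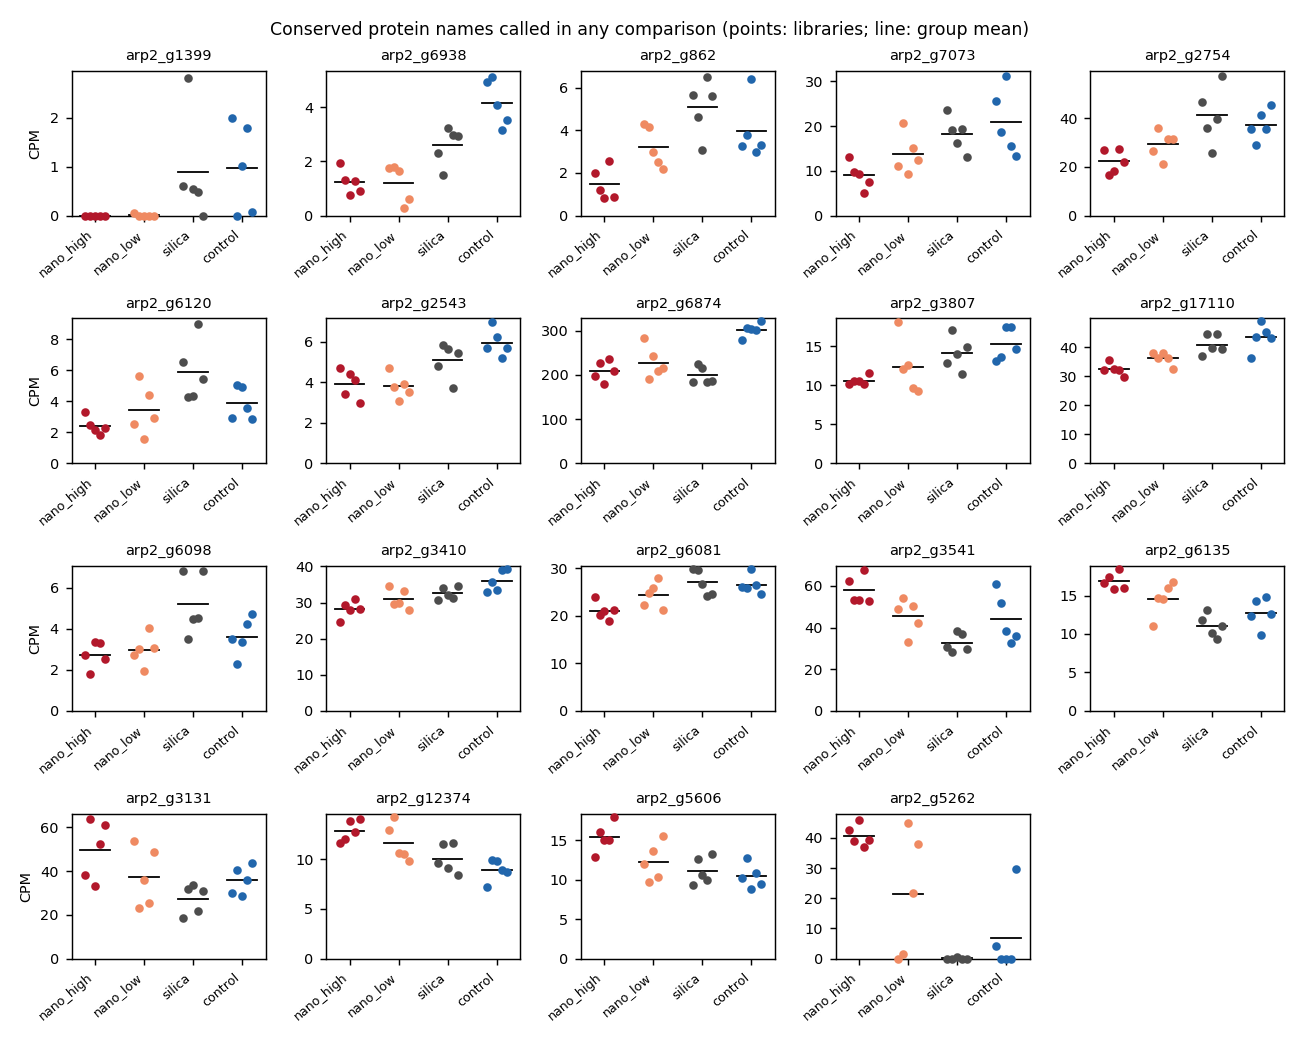
CPM of each of the 19 conserved proteins called in any comparison, a point per library and a line at the group mean, with axes from 0. Panels run from the lowest to the highest log2 fold change of nano_high against control, from arp2_g1399, at 0 in nano_high, to arp2_g5262.

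Silica was labelled with the same value as nano_high, but with no unit. Set against silica, the higher polymer concentration differed in 12 conserved proteins, 4 higher and 8 lower in nano_high. Their share of 5.17% lay beside 5.35% of all names (2.37% higher and 2.99% lower). Libraries did not overlap for 12 members (5.17%, against 7.79% of all names), 4 higher (3.52% of all names) and 8 lower (4.27%). Of the 12, 7 were also called in nano_high against control, and since both comparisons use the nano_high libraries these are not independent.

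Conserved protein/arp2_g5262 was close to all or nothing. It had 42.8, 39.1, 45.8, 36.9 and 39.3 CPM in nano_high, against 0, 0, 0.660, 0 and 0 CPM in silica. Nano_low was split, with 0, 1.62, 44.9, 21.8 and 38.1 CPM, and so was control, with 4.09, 0, 0, 0 and 29.8 CPM. All 5 nano_high libraries were high and all 5 silica libraries at or near 0, while the other groups held libraries of both kinds. The fitted log2 difference from silica was 8.30 (SE 2.02, edgeR adjusted p = 0.0266). That fold rests on the few silica counts, all in silica 3: it was 13.3 without silica 3, where silica is wholly at 0, and 7.56 to 8.16 without another silica library. The other comparisons did not pass: nano_high against control gave 2.65 (SE 1.35, adjusted p = 0.233) and nano_high against nano_low 0.95 (SE 1.26, 0.888). The call was lost without nano_high 2 or 5, or any single silica library (0.0504 to 0.0861).

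Others were lower in nano_high than in silica. Conserved protein/arp2_g1399 was at 0 in nano_high, at least 83.2-fold lower than the silica mean of 0.890 CPM, or 38.1-fold without silica 2 (edgeR adjusted p = 0.0169), a call lost by limma-trend (0.0591) and after thinning (0.0599). Conserved protein/arp2_g862, given above in nano_high, had 5.67, 4.64, 3.08, 6.51 and 5.60 CPM in silica, a log2 fold change of -1.75 (SE 0.33, edgeR adjusted p = 0.0101, or 0.0547 with only the 2 groups). Conserved protein/arp2_g6120 had 3.30, 2.48, 2.15, 1.83 and 2.27 CPM in nano_high, against 6.53, 4.31, 4.35, 9 and 5.47 CPM in silica (log2 fold change -1.30). Again the groups did not overlap. Conserved protein/arp2_g7073, conserved protein/arp2_g2754, conserved protein/arp2_g6098, conserved protein/arp2_g6081 and conserved protein/arp2_g17110 fell by 1.03, 0.88, 0.92, 0.36 and 0.33 on the log2 scale.

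Beside arp2_g5262, 3 were higher in nano_high than in silica. Conserved protein/arp2_g3541 had 62.2, 53.1, 53.4, 67.7 and 52.9 CPM in nano_high, against 30.6, 28.4, 38.4, 36.8 and 29.9 CPM in silica, a log2 fold change of 0.82 (SE 0.16, edgeR adjusted p = 0.0141). Control lay across both, at 61.1, 52.0, 38.4, 32.4 and 35.9 CPM. Conserved protein/arp2_g6135 had 16.6, 17.4, 15.9, 18.4 and 16.0 CPM in nano_high, against 11.8, 13.1, 10.2, 9.38 and 11.1 CPM in silica (log2 fold change 0.60, edgeR adjusted p = 0.0169). Conserved protein/arp2_g3131 averaged 49.7 ± 13.7 CPM in nano_high and 27.4 ± 6.69 CPM in silica (SD, n = 5 each), with overlap (adjusted p = 0.0469). Just outside lay conserved protein/arp2_g8640 (0.0537) and conserved protein/arp2_g5606 (0.0602).

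These differences from silica were sensitive to single libraries. Leaving out nano_high 2, 4 or 5 lowered the count of 12 to 5, 6 or 4, and leaving out silica 1 or 4 lowered it to 5 or 6. The share of all names called in these fits is not given here, so the drops are not shown to be particular to the members. The count was 22 by DESeq2 (9.48%, against 12.2% of all names). With only the 2 groups in the fit it was 3 (1.35%, against 0.481%), namely arp2_g5262, arp2_g3541 and arp2_g6135. Without the 5 libraries that stood apart, of which nano_high 4 and 5 enter here and no silica library does, it was 2 (0.881%, against 0.505%), namely arp2_g862 and arp2_g5262. There the adjusted p was 0.0557 for arp2_g3541 and for arp2_g6135, 0.121 for arp2_g1399, and 0.0752 to 0.178 for the other 7. The calls of arp2_g862, arp2_g3541, arp2_g6135 and arp2_g1399 held in all 20 fits that left out a single library. The call of arp2_g7073 was lost without nano_high 2, 4 or 5 or silica 1, 2 or 4 (adjusted p 0.0581 to 0.105). Those of arp2_g6120 and arp2_g6098 were lost without nano_high 2, 4 or 5 or silica 1 or 4 (0.0576 to 0.0709 and 0.0609 to 0.118), and that of arp2_g6098 also without silica 5 (0.0798). That of arp2_g6081 was lost without nano_high 2, 4 or 5 or silica 1 or 2 (0.0661 to 0.1), and that of arp2_g17110 without nano_high 4 or 5 or silica 2 or 4 (0.058 to 0.0818). For arp2_g2754 it was nano_high 2 or 5 or silica 1 or 5 (0.0508 to 0.0631). For arp2_g3131 it was 12 of the 20 (nano_low 3, nano_high 2, 4 or 5, control 1, 2, 4 or 5, silica 1, 2, 4 or 5; 0.0513 to 0.13). Its call was also lost by limma-trend (0.0512), after thinning (0.0582) and with the first principal component held constant, where the log2 fold change was 0.57 (0.0735). Thinning ended those of arp2_g6081 (0.0554) and arp2_g6098 (0.0833) too. With the replicate number as a block the calls of arp2_g3131 and arp2_g6081 were also lost.

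Between the 2 polymer concentrations 0 of the 232 conserved proteins passed by edgeR, and 0 also by DESeq2 and by limma-trend, against 0.00% of all names by edgeR. At an unadjusted p under 0.05 there were 10 members (4.31%), against 6.76% of all names. The lowest adjusted p was 0.583, for arp2_g862, with 2.01, 1.21, 0.837, 2.58 and 0.875 CPM in nano_high, against 4.29, 4.17, 2.98, 2.52 and 2.19 CPM in nano_low. The groups overlapped through nano_high 4 alone, which lay above nano_low 4 and 5. Libraries of the 2 concentrations overlapped for every tested member (0 without overlap, against 1.18% of all names, 0.582% higher and 0.595% lower).

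Of the 3 members with the largest spread within groups, arp2_g113 and arp2_g4919 were lowest in libraries that stood apart. Conserved protein/arp2_g113 had 243, 26.3, 143, 0.696 and 42.6 CPM in nano_high, 1.13, 363, 16.8, 484 and 297 in nano_low, 647, 202, 145, 225 and 616 in silica, and 577, 74.6, 273, 1.52 and 1.38 in control. Its lowest values fell in nano_low 1, nano_high 4, control 4 and control 5, which are 4 of the 5 libraries that stood apart and had collagen sums of 2709, 4116, 3515 and 3177 CPM. Expressed protein/arp2_g113, of the same tag, had its lowest values in the same 4 libraries, at 0.0537, 0.151, 0.380 and 0.308 CPM, and its highest in silica 5 (35.9), control 1 (32.1) and silica 1 (30.9). Conserved protein/arp2_g4919 had 9.98, 34.6, 61.2, 0.743 and 1.01 CPM in nano_high, 0.268, 5.51, 67.5, 19.2 and 8.12 in nano_low, 41.6, 43.0, 38.7, 17.4 and 69.9 in silica, and 84.4, 4.30, 2.52, 0.798 and 0.462 in control. Its 5 lowest values were those of the 5 libraries that stood apart. The part of whatever set these libraries apart was not tested. Conserved protein/arp2_g5262, the other of the 3, had both high and low values among them: 36.9 and 39.3 CPM in nano_high 4 and 5, 29.8 in control 5, and 0 in control 4 and nano_low 1. No comparison called arp2_g113 or arp2_g4919 (lowest adjusted p 0.388 and 0.56).

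**Figure D4:**
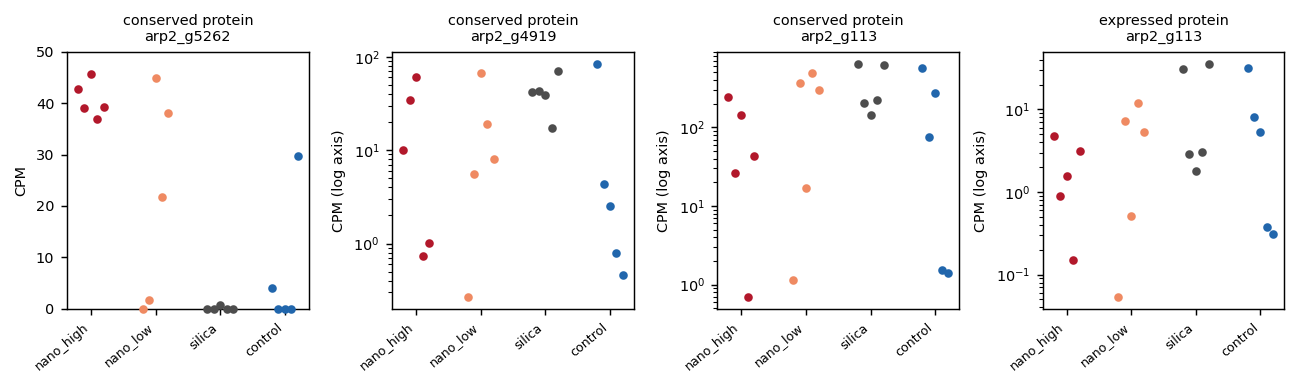
CPM per library of conserved protein/arp2_g5262 (linear axis) and, on log axes, of conserved protein/arp2_g4919, conserved protein/arp2_g113 and expressed protein/arp2_g113. Arp2_g5262 is at 36.9 to 45.8 CPM in nano_high and at 0 to 0.660 CPM in silica, while conserved protein/arp2_g113 spans 0.696 to 243 CPM in nano_high alone.

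Among the 185 members with a mean of at least 1 CPM, 108 had a range over 2-fold within some group and 29 a range over 10-fold or a library at 0. Members high in CPM could also swing. Conserved protein/arp2_g6543 ranged from 64.2 to 385 CPM in nano_high, 41.8 to 530 in nano_low, 240 to 713 in silica and 46.6 to 329 in control. Conserved protein/arp2_g9365 was the highest tagged member by mean CPM. It ranged from 900 to 1953 CPM in nano_high, 1000 to 2295 in nano_low, 364 to 1340 in silica and 900 to 2529 in control. Its lowest edgeR adjusted p was 0.146 (nano_high against silica).

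At the other end stood members that hardly moved. Conserved protein/arp2_g2073 averaged 33.4 ± 2.10 CPM in nano_high, 31.9 ± 4.03 in nano_low, 33.5 ± 1.19 in silica and 35.5 ± 1.16 in control (SD, n = 5 each). Conserved protein/arp2_g2743 averaged 37.5 ± 0.811, 38.6 ± 2.61, 40.2 ± 3.34 and 40.9 ± 4.12 CPM in the same order of groups, and conserved protein/arp2_g4169 37.2 ± 3.16, 36.2 ± 4.17, 36.2 ± 2.14 and 36.1 ± 1.34 CPM. These 3 had the smallest within-group spread, with SDs of 0.094, 0.098 and 0.11 on the log2 scale, and none passed in any comparison. For arp2_g4169 the difference of nano_high from control was 0.04 (SE 0.08).

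Another 96 names, expressed, hypothetical and uncharacterized proteins, also lack a described function, and 79 of them were tested. They had a median of 2.09 CPM, against 7.84 CPM for the conserved proteins. In nano_high against control 2 of the 79 fell and 0 rose (2.53%), in nano_low 1 fell and in silica 0 were called, with 13 (16.5%, against 23.2% of all names) at an unadjusted p under 0.05. In nano_high against silica 4 were called, 1 higher and 3 lower (5.06%). Whether conserved proteins and these names differ in the share called was not tested.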

How the data were processed

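Salmon 0.12.0 and R 3.4.3 are listed in the submitters' processing notes, with no role given. Neither the reference nor the way transcripts became names is stated there. The authors deposited expected counts (estimated, not whole numbers) under the word normalized, and since library totals spanned 7912434 to 95906857 (12.1-fold) they were taken as unscaled. Rounded values of 7564 of the 7784 names entered the tests, each with 1 or more in 5 or more libraries. TMM factors ran from 0.898 to 1.14. The quasi-likelihood model of edgeR 4.0.16 (R 4.3.3) had 4 group means over 20 libraries. P-values were two-sided and Benjamini-Hochberg adjusted over 7564 names, and "called" means an adjusted p below 0.05. The fit was tried on simulated counts with the same dispersion for every name and changes planted only in names above a bound on counts. Members of low count or large spread were thus not covered. Alternatives used limma 3.58.1 and DESeq2 1.42.0, and figures Python 3.11.15 with matplotlib 3.10.9. The spread on the log2 scale used log2(CPM + 0.1). A floor of 3 counts over a group covers counting error only. Of 40 replicate pairs, 0 were identical.

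The members and lists were chosen with earlier results of these data known. Named members are the 4 given with the set, and per exposure up to 6 rises and 6 falls among called members (3 and 3 in the other comparisons). Also named are the 2 smallest p per comparison, the 6 highest in mean CPM, and called members at 0 in a whole group. The rest are the 3 with the largest and the 3 with the smallest spread among those of at least 1 CPM, and the 2 nearest the threshold on each side. Tags of members could not be tied to sequences, so members with near-identical copies may share reads and are uncertain as to the gene.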

Additional observations from a re-analysis of the deposited data

Results flagged for a closer look

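In 9 of 128 sets of 5 libraries (32 named members in 4 groups), the highest or lowest library stood off by more than 0.71 of the set's range, which chance does in about 1 set in 20 of normally distributed values. That rate does not apply here as a whole, since in 3 of the 9 the other 4 libraries are at 0 and some members were named for their spread. Conserved protein/arp2_g5262 had 0.660 CPM in silica 3, where the other 4 silica libraries were at 0, and 29.8 CPM in control 5. Conserved protein/arp2_g1399 had 0.0537 CPM in nano_low 1, where the other 4 were at 0, and 2.82 CPM in silica 2. Conserved protein/arp2_g862 had 6.39 CPM in control 3. Conserved protein/arp2_g4919 had 67.5 CPM in nano_low 3 and 84.4 CPM in control 1. Conserved protein c20orf4 homolog/arp2_g3807 had 11.6 CPM in nano_high 5, the highest of that group. Conserved protein/arp2_g329 had 0.574 CPM in silica 4, where the other 4 were at 0.

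Levels differed between nano_high and silica for 12 members, tested directly by edgeR (5.17%, against 5.35% of all names). Whether the particle type set these differences was not tested. Of these 12 members, 2 passed without the 5 libraries that stood apart and 3 with only the 2 groups in the fit. The log2 differences were 8.30 for conserved protein/arp2_g5262, where 4 silica libraries are at 0, 0.864 for conserved protein/arp2_g3131, 0.817 for conserved protein/arp2_g3541 and 0.60 for conserved protein/arp2_g6135. They were -7.82 for conserved protein/arp2_g1399, where nano_high is at 0 and the fitted value is no bound, -1.75 for conserved protein/arp2_g862, -1.30 for conserved protein/arp2_g6120 and -1.03 for conserved protein/arp2_g7073. The remaining 4 were conserved protein/arp2_g6098 (-0.922), conserved protein/arp2_g2754 (-0.879), conserved protein/arp2_g6081 (-0.363) and conserved protein/arp2_g17110 (-0.333).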

How the results depend on the processing

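Each comparison was recomputed under 30 alternatives. Of called members, 0 changed direction under any of them. With a library left out, the number of members called ran from 8 to 19 in nano_high against control (14 as reported), from 0 to 6 in nano_low against control (1), from 0 to 3 in silica against control (1), and from 4 to 18 in nano_high against silica (12). How many of all names were called in these fits is not given here, so these ranges have no background beside them. In nano_high against nano_low the number of members called was 0 in all 30 alternatives. DESeq2 called 24, 5, 3 and 22 members in the first 4 of these, and the fit of only the 2 groups 9, 0, 5 and 3. Holding the first principal component constant, the counts were 29, 4, 0 and 19, and without the 5 libraries that stood apart 10, 0, 0 and 2. In silica against control DESeq2 size factors, no filter and limma-trend each gave 2. These were 0.862%, 0.787% and 0.862% of the members, against 0.793%, 0.726% and 0.899% of all names. Thinned to the lowest total, nano_low against control gave 0, against 0.199% of all names. The causes were not tested. The replicate number as a block gave 13, 0, 0, 10 and 0 member calls, against 611, 13, 0, 267 and 0 of all names. That is 5.60% of the members against 8.08% of all names in nano_high against control, and 4.31% against 3.53% in nano_high against silica. Only 8 of 30 same-numbered pairs had deviations correlated over 0.1, and 3 of 20 libraries correlated best with their own number, so the numbers were not taken to pair libraries. Of all names, edgeR called 761, 47, 53, 405 and 0 in the same order and DESeq2 1152, 227, 399, 919 and 4. The fit of only the 2 groups called 380, 3, 373, 36 and 0 (5.01% of all names in silica against control, where the 5 members are 2.31%). Holding the first principal component constant gave 1754, 188, 0, 653 and 0, and leaving out the 5 libraries 617, 40, 0, 38 and 0. Without the bare name the members' median share was 0.631% in nano_high, 0.681% in nano_low, 0.613% in silica and 0.70% in control. Thinning moved the median number of members detected in nano_high to 219. Members under 1 CPM rest on few counts in the shallow libraries.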
